A study of Mus musculus with 2 samples.

Results

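AP-1 and early growth response genes encode transcription factors and small regulators that many cells switch on within minutes of a stimulus. The 10 genes described here were Fos, Fosb, Fosl1, Fosl2, Jun, Junb, Jund, Egr1, Ier2 and Ier3, out of 20649 genes with a named probe. They were chosen by name, and every non-control probe whose accession was a RefSeq transcript of one of them was taken, which gave 11 probes and 20 spots per array. The series compared tumour-infiltrating monocytic myeloid-derived suppressor cells (M-MDSCs), immature monocyte-like cells that restrain T cells, between mice on a normal-salt diet (NSD) and mice on a high-salt diet (HSD). Both groups were female BABL/c mice (strain spelled as in the labels) that received 1000000 cells of 4T1, a mouse mammary carcinoma line, and were kept on their diet for 16 days. NSD mice had chow with 0.4% NaCl and tap water, and HSD mice had chow with 4% NaCl and 1% NaCl in the drinking water. M-MDSCs were isolated with magnetic beads after enzymatic digestion of the tumours, and equal numbers of cells from the mice of a group were mixed, so each group was 1 pool hybridised to 1 one-colour Agilent array.

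AP-1 is a dimer of basic leucine zipper (bZIP) proteins. A Fos protein (Fos, Fosb, Fosl1 or Fosl2) pairs with a Jun protein (Jun, Junb or Jund), and Jun proteins also pair with one another. Fos, Fosb and Egr1 are classical immediate-early genes: kinases of the MAPK cascade activate ternary complex factors bound beside serum response factor, and transcription begins without new protein synthesis. Egr1 is a zinc-finger factor that binds GC-rich elements, Ier2 is a small nuclear early response protein, and Ier3 (IEX-1) is a stress- and NF-kappa B-responsive gene that acts on cell survival and ERK signalling. In myeloid cells these factors regulate cytokines, matrix proteases and differentiation.

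The proximal promoters of Fos, Junb and Ier3 are printed because these genes differed most among the Fos, Jun and Ier members, Fos and Junb in one direction and Ier3 in the other. Each is the 250 bases before the RefSeq transcript start in GRCm38.p6, 5′ to 3′ on the gene's strand, in lower case with a kappa B element in capitals. The windows are chr12:85473640-85473889 on the plus strand for Fos, chr8:84978749-84978998 on the minus strand for Junb, and chr17:35821463-35821712 on the plus strand for Ier3.
Fos: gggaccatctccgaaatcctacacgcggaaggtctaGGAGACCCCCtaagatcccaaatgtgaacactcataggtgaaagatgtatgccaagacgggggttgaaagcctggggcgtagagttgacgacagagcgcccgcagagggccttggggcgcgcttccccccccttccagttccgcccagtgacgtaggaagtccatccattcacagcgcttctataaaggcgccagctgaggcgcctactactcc
Junb: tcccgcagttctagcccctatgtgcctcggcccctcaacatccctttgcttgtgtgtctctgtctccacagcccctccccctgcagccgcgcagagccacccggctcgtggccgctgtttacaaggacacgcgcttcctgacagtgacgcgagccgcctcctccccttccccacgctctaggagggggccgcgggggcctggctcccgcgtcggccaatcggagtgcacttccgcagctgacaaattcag
Ier3: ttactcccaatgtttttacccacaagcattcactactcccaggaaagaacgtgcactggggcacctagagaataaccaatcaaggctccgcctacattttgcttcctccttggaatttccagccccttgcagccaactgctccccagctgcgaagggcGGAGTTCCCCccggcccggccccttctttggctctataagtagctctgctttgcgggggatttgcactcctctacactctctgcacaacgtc

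RefSeq windows running from 250 bases before to 50 bases after the start were found for 7 of the 10 members. Fosl1, Ier2 and Egr1 had no entry. Elements of 6 kinds were looked for on both strands: the cyclic AMP element TGACGTCA, the AP-1 element TGAGTCA, the EGR element GCGGGGGCG, and the CArG box, the kappa B element and the tonicity element by their names. A kappa B element lay in 4 of the 7 windows, those of Fos, Fosb, Fosl2 and Ier3, against 8.46% of 32851 promoters of the same length. In Fos it spanned bases -214 to -205 from the start, and in Ier3 bases -92 to -83, on the minus strand in both. The window of Fosl2 held a pair of overlapping matches, one on each strand. The EGR element lay in 2 of 7, Fosb and Fosl2, against 2.91% of all promoters, and Junb held none of the 6 elements. No member window held the cyclic AMP element (1.79% of all promoters), the AP-1 element (5.20%), the CArG box (1.63%) or the tonicity element (4.96%). These are matches of letters in a short window, and a window without a match says only that these letters are not in it.

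Signals are the processed intensities of Agilent Feature Extraction. Fold changes are HSD over NSD after each array was divided by the 75th percentile of its signals, 252 for NSD and 233 for HSD. With 1 array per group there was no replicate, so no test was possible and a fold change describes these 2 pools of cells. The software error given beside a log2 fold change is the error that Feature Extraction assigns to each signal, propagated to the difference. It covers the measurement of a spot and not the spread between mice. The spread between spots of repeatedly printed probes of like brightness gave another error, 0.11 for Egr1, 0.16 for Junb and 0.44 for Fosl1. A fold of 1.5, the threshold of the study's methods, was used to count genes. In a pooled sample, fewer cells of a type and less RNA per cell cannot be told apart. Both arrays lay on 1 slide and were read in 1 scan, the share of probes well above background was 71.9% for NSD and 72.4% for HSD, and no spot was saturated.

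Each array measured all 10 members well above background, and none of their spots was flagged. Ier3 was the 1 member at least 1.5-fold higher in HSD, where 9.86% of the 16312 genes with a fold change were that much higher. Fos, Junb and Egr1 were the 3 members at least 1.5-fold lower, where 10.3% of all genes were that much lower. The other 6 members lay within 1.5-fold. The median log2 fold change of the 10 members was 0.25, beside 0.05 for all genes, with 6 members above 0 and 4 below. The members therefore did not move in one direction, and their median hides a spread from -0.95 to 1.59.

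**Figure D1:**
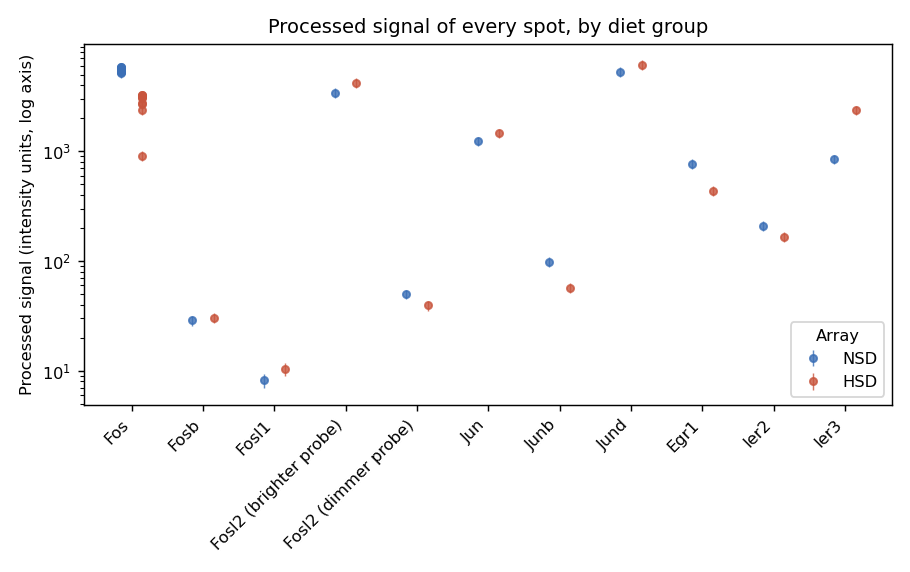
Processed signal of every spot of the 11 probes in NSD and HSD, on a log axis. Points are spots and bars are the software's error for that spot; the lower HSD signals are those of Fos, Junb, Egr1, Ier2 and the dimmer Fosl2 probe, and the gap is widest for Ier3, from 848 to 2364.

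**Figure D2:**
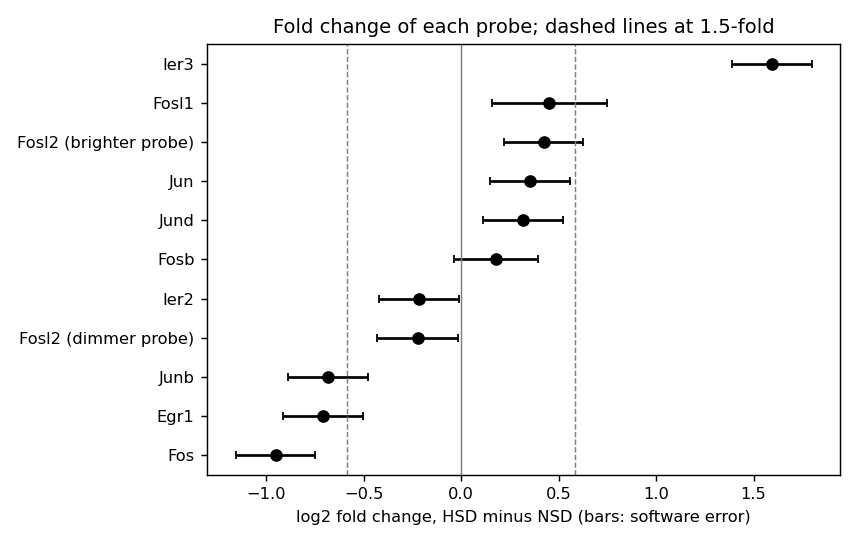
Log2 fold change, HSD minus NSD, of each probe in order of size, with the propagated software error as bars and dashed lines at 1.5-fold. Ier3 stands alone on the right at 1.59, and Fos, Egr1 and Junb lie beyond the left line at -0.95, -0.71 and -0.68, with the bars of Egr1 and Junb reaching back across it.

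Among the Fos family, Fos, the prototype subunit and the most transient of the group in stimulated cells, was the member that stood lower in HSD. Its probe A_52_P262219 was printed 10 times on each array. On the NSD array the 10 spots ran from 5170 to 5823 with a median of 5517, and on the HSD array from 908 to 3247 with a median of 3083. Every NSD spot was brighter than every HSD spot, and this remained so after scaling, with the lowest NSD spot at 20.5 and the highest HSD spot at 13.9 times the 75th percentile. Such a separation was not rare: 22.1% of 289 probes with 5 or more spots per array had all HSD spots below all NSD spots. The mean signal was 5514 in NSD and 2633 in HSD, a log2 fold change of -0.95 (1.93-fold lower, software error 0.20, error from the spread of its own spots 0.18).

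The HSD spots of Fos were uneven. Their SD was 0.56 on the log2 scale against 0.07 in NSD, and 1.04% of the 289 probes had an HSD spot SD at least as large. The spread came from 1 unflagged spot at 908. The spot at the same position on the NSD array read 5822, and the 27 measurable spots around it had a median log2 difference of 0.08, with 4 of them at least 2-fold lower in HSD. Without that spot the remaining 9 HSD spots averaged 2964 with an SD of 0.16, and the log2 fold change was -0.78. Taking the median over spots gave -0.73. Fos was thus lower in HSD by more than 1.5-fold with or without it. With that spot kept, at a log2 fold change of -0.95, 4.63% of all genes had a lower fold change than Fos.

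**Figure D3:**
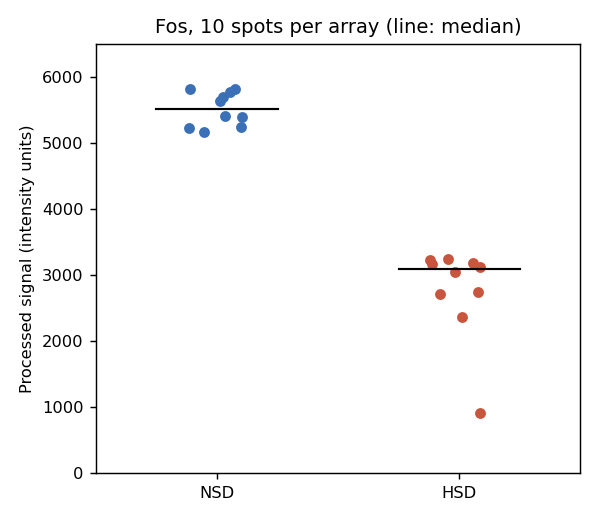
Processed signal of the 10 Fos spots on each array, with a line at the median. The NSD spots sit between 5170 and 5823, above the HSD spots, which lie between 2365 and 3247 apart from 1 spot at 908.

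The remaining Fos-family subunits did not share the lower signal of Fos. Fosb, which like Fos carries a transactivation domain, read 28.8 in NSD and 30.1 in HSD, a log2 fold change of 0.18 (software error 0.21). Fosl1 (Fra-1), which lacks that domain and accumulates later in a response, was dim on both arrays, 8.14 in NSD and 10.3 in HSD. Its log2 fold change of 0.45 (0.30) was 0.14 with the normexp background correction, whose offset of 50 draws the fold changes of dim probes towards 0. Fosl2 (Fra-2) had a pair of probes that disagreed in direction. The brighter read 3403 in NSD and 4213 in HSD, a log2 fold change of 0.42 (0.20), and the dimmer 49.6 and 39.3, a log2 fold change of -0.22 (0.21). Neither passed 1.5-fold, and where on the transcripts the probes lie was not analysed here. The difference between the log2 fold changes of Fosl2 (brighter probe) and Fos was 1.37 (software error 0.29), and it lay between 1.05 and 1.38 over the alternative settings.

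The Jun family split in the same manner, with Junb apart from Jun and Jund. Junb, often a weaker activator than Jun and able to oppose it, read 98.5 in NSD and 56.6 in HSD, a log2 fold change of -0.68 (1.61-fold lower, software error 0.21). With normexp, which added an offset of 50 to the signals, it was -0.36 and no longer past 1.5-fold. The size of the Junb difference thus depended on the background correction together with its offset. Jun, the main activating partner of Fos, read 1231 in NSD and 1452 in HSD, a log2 fold change of 0.35 (0.20). Jund, the most constitutive of the Jun genes, read 5316 in NSD and 6116 in HSD, a log2 fold change of 0.32 (0.20). Both were higher in HSD by less than 1.5-fold. The log2 fold changes of Jun and Junb differed by 1.04 (0.29), and by 0.60 to 1.04 over the settings. The 7 AP-1 subunits had a median of 0.32, with 5 above 0 and 2 below.

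Egr1 was lower in HSD, with a signal of 773 in NSD and 437 in HSD. Its log2 fold change was -0.71 (1.63-fold lower, software error 0.20), and 7.64% of all genes lay below it. Ier2 read 210 in NSD and 167 in HSD, a log2 fold change of -0.22 (0.20), within 1.5-fold. Egr1 and Ier2, immediate-early genes that are commonly induced alongside Fos, thus both had negative values, of which that of Egr1 passed the threshold.

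Ier3 went the other way and was the largest difference among the members. Its signal was 848 in NSD and 2364 in HSD, a log2 fold change of 1.59 (3.02-fold higher, software error 0.20). Only 0.883% of all genes had a higher fold change. The value lay between 1.46 and 1.60 over the alternative settings. The log2 fold changes of Ier3 and Ier2, which share a name but belong to different protein families, differed by 1.81 (0.29), and those of Ier3 and Egr1 by 2.30 (0.29).

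Every member kept its sign in all 13 alternative settings tried. For a member with 1 probe of 1 unflagged spot, several settings could hardly change the value. These were the settings on dim probes, flagged spots, the probe per gene and the average over spots. Fos, Egr1 and Ier3 were past 1.5-fold in 13 of 13, Junb in 12 of 13, and the other 6 members in none. Fos ranged from -1.05 to -0.73 and Egr1 from -0.78 to -0.65. Jun ranged from 0.25 to 0.36, Jund from 0.21 to 0.32, Fosl2 from 0.10 to 0.43, Fosb from 0.12 to 0.19 and Ier2 from -0.26 to -0.13.

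**Figure D4:**
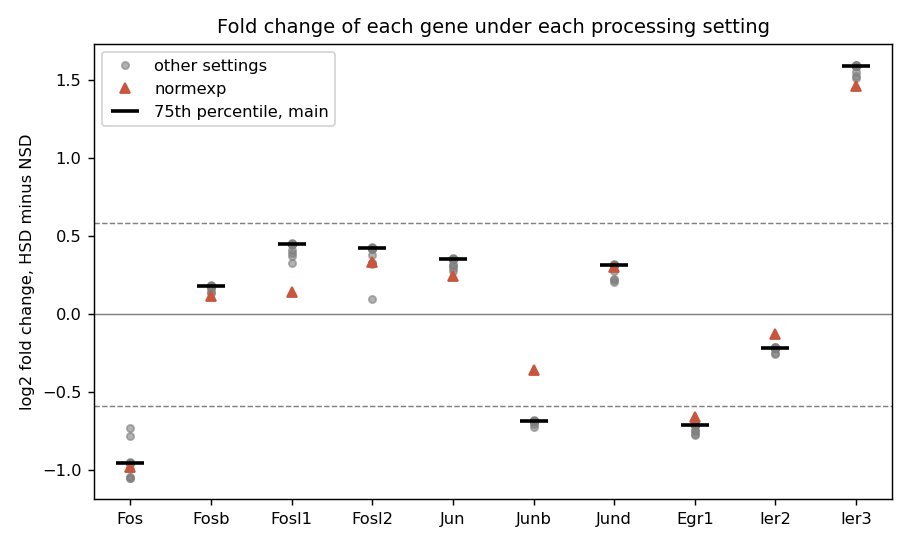
Log2 fold change, HSD minus NSD, of each gene in the main setting (bar), with normexp background correction (triangle) and in the other settings (points), with dashed lines at 1.5-fold. No gene crosses 0, and Junb is the gene that crosses a dashed line, at -0.36 with normexp.

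The bZIP proteins that can replace a Fos or Jun partner, or compete for related DNA elements, included some of the widest differences. Of 12 such genes, 2 were at least 1.5-fold higher in HSD and 4 lower by as much, beside 9.86% and 10.3% of all genes. The median log2 fold change of the 12 genes was -0.0086, and 0.17 when each gene took the median of its probes. Maf, a large Maf factor, read 1409 in NSD and 264 in HSD, a log2 fold change of -2.30. Atf3, a stress-induced partner of Jun and a repressor of inflammatory genes, read 587 in NSD and 217 in HSD, a log2 fold change of -1.32. Batf2 and Batf3, which dimerise with Jun proteins, were lower as well. Batf2 read 79.9 in NSD and 23.6 in HSD (-1.65, and -0.68 with normexp), and Batf3 read 47.9 and 20.4 (-1.12, and -0.41 with normexp). Their relative Batf, printed 10 times per array, read 485 and 583 (0.38), within 1.5-fold. Maff, a small Maf, was higher in HSD at 75.8 against 37.4, a log2 fold change of 1.13 that was 0.53 with normexp. Nrl was not well above background in NSD (3.80) and read 22.8 in HSD, at least 5.36-fold higher against the dimmest signal well above background there, but its log2 fold change with normexp was 0.34. Jdp2, a Jun dimerisation protein, had a log2 fold change of 0.52, within 1.5-fold.

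Relatives and co-repressors of Egr1 were within 1.5-fold by their brightest probes. Egr2 read 176 in NSD and 158 in HSD, a log2 fold change of -0.04 that was 0.01 with normexp. Egr3 was dim at 7.29 and 6.17 (-0.13, and 0.13 with normexp), and neither array measured Egr4 well above background. Nab1 and Nab2, which bind EGR proteins and repress their activity, had log2 fold changes of 0.47 and 0.34, and the other probe of Nab2 gave 0.65. Over the 4 genes with a fold change the median was 0.15, and 0 of them passed 1.5-fold in either direction. Most genes did not either: 13022 of all 16312 lay within 1.5-fold.

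Of 23 other immediate-early and early stress genes, 2 were at least 1.5-fold higher in HSD and 1 lower, with a median of 0.21. The shares over all genes were 9.86% and 10.3%. Id1, an inhibitor of basic helix-loop-helix factors, read 950 in NSD and 1707 in HSD (0.96). Plk3, a stress-responsive polo-like kinase, read 573 and 1021 (0.95). Ccn2 (Ctgf on the list) was the lower gene, at 12.8 in NSD and 6.92 in HSD (-0.77), and its value was -0.0021 with normexp. The other 20 lay within 1.5-fold by their brightest probes. One of them, Gem, had a log2 fold change of 0.49 by that probe, 1.17 by its other probe and 0.83 as the median over both. Among them Btg2, an antiproliferative gene, had a log2 fold change of 0.18, Zfp36, which destabilises cytokine mRNAs, 0.35, and Myc -0.14.

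Inputs to the serum response factor pathway were mixed: 2 of 18 were at least 1.5-fold higher in HSD and 5 lower, with a median of 0.09. Over all genes 9.86% were that much higher and 10.3% lower. Rps6ka1 (RSK1), a kinase downstream of ERK, read 10122 in NSD and 4579 in HSD (-1.03). Elk3, a ternary complex factor, read 708 and 326 with its brightest probe (-1.01), whereas its other probes gave -0.33 and 0.50. Mkl2, a coactivator of serum response factor, read 671 and 393 (-0.66, and -0.54 with normexp), and its other probes gave -0.44 and -0.57. Srf itself had a log2 fold change of 0.29 by its brightest probe and -0.23 by its other probe. The kinase Mapk3 had 0.36, with 0.10 at its other probe. Creb1, which drives Fos through cyclic AMP elements, read 91.2 in NSD and 165 in HSD (0.97), with 0.25 at its other probe. The Sprouty genes, feedback inhibitors of receptor tyrosine kinase signalling, were all dim. Spry1 was higher (0.67), Spry2 lower (-0.72) and Spry4 at least 3.22-fold lower, and with normexp their log2 fold changes were 0.20, -0.0038 and -0.19.

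Known AP-1 target genes also went both ways. Of 21 listed, 17 had a fold change, with a median of 0.33. Of the 17, 4 were at least 1.5-fold higher in HSD and 3 lower, beside 9.86% and 10.3% of all genes. Cxcl2, a neutrophil chemoattractant, read 108 in NSD and 402 in HSD (2.02). Ptgs2, which encodes cyclooxygenase-2, read 27.3 and 48.5 as a mean of 9 spots (0.95, and 0.44 with normexp). Vegfa, the angiogenic growth factor, read 202 and 333 with its brightest probe (0.84), and its other probe gave 0.43, within 1.5-fold. Spp1, which encodes osteopontin, read 239 and 332 (0.59, and 0.56 with normexp). The lower genes encode an extracellular matrix protein and a pair of matrix proteases. Thbs1, encoding thrombospondin-1, read 600 in NSD and 79.7 in HSD (-2.80). Mmp13 read 33.5 and 12.3 (-1.33) and Mmp12 60.5 and 28.5 (-0.97), and these were -0.30 and -0.41 with normexp. Mmp9 and Il1b, each printed 10 times per array, had log2 fold changes of 0.39 and 0.33, within 1.5-fold.

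**Figure D5:**
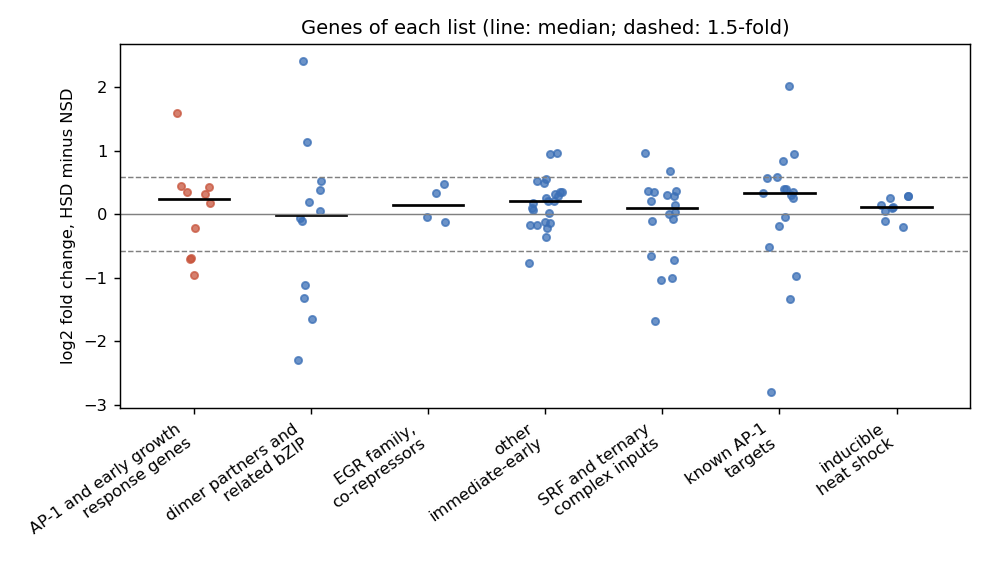
Log2 fold change, HSD minus NSD, of the 10 members and of the genes of 6 companion lists, with a line at each list's median and dashed lines at 1.5-fold. Points of the members and of the bZIP, other immediate-early, serum response factor and AP-1 target lists lie beyond both dashed lines. Those of the EGR and heat shock lists lie between them.

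Cell handling is known to induce early genes and heat shock genes, and its part in the values of the members was not tested. The heat shock genes with a fold change were all within 1.5-fold, as were 13022 of all 16312 genes. Of the 10 listed genes, 9 had a fold change, from -0.21 to 0.29 with a median of 0.12. Hspa1a, the inducible HSP70, read 17.5 in NSD and 19.8 in HSD (0.29), and Dnajb1, its co-chaperone, 1240 and 1231 (0.10).

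Markers of the isolated cells and of other cells were read beside these values. The 7 measured markers of monocytes and M-MDSCs were all well above background in NSD and in HSD, and their summed signal, scaled, was 1.03 times as high in HSD. Most of that sum came from Ly6c1 (51811 in NSD, 48478 in HSD) and Itgam (31564 and 31043). Of the 7, Cd14 (0.82) and Cx3cr1 (0.78) were at least 1.5-fold higher in HSD and Ccr2 (-0.78) at least 1.5-fold lower. Over all genes, 9.86% were that much higher and 10.3% that much lower. All 7 measured neutrophil markers were well above background too, among them the granule genes Camp (61817 in NSD, 59919 in HSD) and Ltf (51766 and 51993), with a scaled sum of 1.06 times. Before scaling, neutrophil markers summed to 221620 in NSD and 217970 in HSD, and those of monocytes and M-MDSCs to 102450 and 97064. Sums over different probes do not give shares of cells, and the part of neutrophils in the signals of the members was not tested. Of the macrophage markers, 5 of 7 were at least 1.5-fold lower in HSD, beside 10.3% of all genes. Their scaled sum was 0.662 times that in NSD, from 14188 to 8678 before scaling. Mrc1 read 134 in NSD and 5.49 in HSD (-4.50, and -1.56 with normexp), and C1qc 52.6 and 5.61 (-3.11, and -0.74 with normexp). C1qb went the other way (0.33), and Adgre1, which encodes F4/80, had -0.55. The part of macrophages in the lower values of Fos, Junb, Egr1 and Maf was not tested. Fibroblast markers were lower too: the 4 with a fold change were all below 0, and the scaled sum was 0.837 times that in NSD. Of the 4, 2 were at least 1.5-fold lower, Col3a1 (-1.09) and Dcn (-0.80), beside 10.3% of all genes. These were dim probes, with -0.05 and -0.03 under normexp, and the part of fibroblasts in the lower values of Thbs1 and Mmp13 was not tested. The 8 epithelial markers of carcinoma cells summed to 258 in NSD and 229 in HSD, 0.958 times after scaling. Of these, 5 were above 0 and 3 at least 1.5-fold higher, beside 9.86% of all genes. The 3 were Krt18 (0.76), Epcam (0.70) and Krt8 (0.61), which were 0.34, 0.23 and 0.17 with normexp. The 5 B-cell markers had a scaled sum 1.26 times as high in HSD. That of T and NK cell markers was also 1.26 times, carried by Cd3d (1501 in NSD, 1871 in HSD), whereas 4 of 7 of these markers were below 0, with a median of -0.26 and Cd3e at -1.09.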

How the data were processed

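RNA of 1 pooled NSD and 1 pooled HSD sample of M-MDSCs was measured on 2 one-colour Agilent arrays. The intensity values deposited by the authors are Feature Extraction 11.0.1.1 processed signals, already background-subtracted. The authors also deposited a table of log2 values normalized in GeneSpring GX, by a method not given in the sources used here, which served as an alternative. Probes were named by matching accessions to RefSeq genes (27217 of 39413 probes, 69.1%). Array coordinates follow another genome build and were not used.

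Control and outlier-flagged spots were left out, spots of one probe were averaged on the log2 scale, and each array was set relative to its 75th percentile. The brightest probe gave the gene. A probe measured well above background on neither array was dropped, and one dim on a single array was set there to the dimmest signal well above background. No test was run with 1 array per group, and that number sets the limit of precision. Calculations used Python 3.11.15, numpy 2.4.6, pandas 2.3.3, R 4.3.3 and limma 3.58.1 (normexp with offset 50, quantile normalization, cyclic loess), and were tested on simulated data. Normexp used the median spot signal. The members and lists were chosen with earlier results of these data known, and 1 listed gene is not reported here. All members are named, and of each other list up to 6 genes past 1.5-fold by size, plus those named by role. Other alternatives changed the scaling, the filter on dim probes, flagged spots, the probe per gene, the average over spots and the fold threshold. Leaving out the low Fos spot, the median over spots, and the lists under every alternative were chosen after seeing the data.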

Additional observations from a re-analysis of the deposited data

How the results depend on the processing

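With a 2-fold in place of a 1.5-fold threshold, 0 members were lower in HSD and 1, Ier3, was higher. The share of all genes past 2-fold was not counted, so these counts have no background beside them. Apart from the count of lower members at 2-fold, the other 40 values of the members' counts and median under the alternatives stayed within their limits. The limits were a ratio of 1.5 for a count and a shift of 0.14, the members' median spot error, for the median. Within them, the members' median went from 0.25 to 0.13 with normexp and to 0.14 with the median over probes. No member and no listed gene past 1.5-fold changed sign. Several of the alternatives could hardly change a member with 1 probe of 1 spot. The median of the bZIP list, -0.0086, turned to 0.17 with the median over probes and to 0.02 with normexp, and Egr2 and Egr3, within 1.5-fold, turned positive with normexp. Normexp moved the most values: Junb fell below 1.5-fold, and the genes at least 1.5-fold lower numbered 2 in place of 5 among serum response factor inputs, 1 in place of 3 among AP-1 targets and 0 in place of 1 among other immediate-early genes, while the higher genes numbered 0 in place of 2 among bZIP factors, 2 in place of 4 among AP-1 targets and 1 in place of 2 among serum response factor inputs, and those among other immediate-early genes 3 in place of 2. Over all genes, 3.89% were at least 1.5-fold higher and 4.07% lower with normexp, in place of 9.86% and 10.3%. Elk3 was -0.33 with the median over probes. The median of all genes, 0.05, lay between -0.02 and 0.05 under the other scalings and was 0.08 with no filter on dim probes. For dim probes such as Fosl1, signal over background limits the fold change, and the offset of 50 in normexp draws it towards 0. No paired analysis was possible because each group had 1 array.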
